A study of Mus musculus with 8 samples.

Results

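The 77 cytosolic ribosomal protein genes described here were chosen by name alone, as every gene symbol in the count tables that starts with Rpl or Rps followed by a number and at most one of the letters a, l or x. They comprise 31 genes of the small (40S) subunit and 46 of the large (60S) subunit, out of 34199 annotated genes. Of these, 75 passed the filter on low counts and were tested with 13080 genes in all. The other 2, Rpl10l and Rpl39l, had 0 counts in all 8 libraries, and no row carries the symbol Rps4l. The genes P0, P1 and P2 of the stalk (Rplp0, Rplp1, Rplp2), Rpsa, Fau and Rack1 (listed as Gnb2l1) carry other names and were kept apart as a companion list.

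Bulk RNA-seq had been made from C57Bl/6 mouse granulocyte-macrophage progenitors immortalised with HOXA9 fused to the hormone-binding domain of a mutant estrogen receptor (iGMPs), which also carry a GFP cassette under the Lysozyme promoter. All groups therefore share the ER-HOXA9 transgene and the reporter, and the study worked with clonal lines and names independent sub-clones for its RNA-seq tracks, without saying which library came from which. Uninduced cells (n = 2) were taken at 0 h in 150 ng/ml estradiol with SCF, the condition in which the fusion is active. CAF-1 OFF cells (n = 2) had received 500 µM IPTG for 48 h, which induces an shRNA against Chaf1b, a subunit of the histone chaperone CAF-1, and stayed in 150 ng/ml estradiol. HOXA9 OFF cells (n = 2) had been washed and kept without estradiol for 48 h, and an IPTG-treated control (n = 2) had 48 h of IPTG, with its construct, dose and estradiol not given in its labels. Which vector the uninduced and HOXA9 OFF cells carried is not stated here. For its single-cell series the study had HOXA9 OFF in control-vector clones and CAF-1 OFF in clones with the Chaf1b shRNA. A difference of clone or construct between groups therefore cannot be told apart from the treatment.

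A ribosome holds one copy of nearly every one of these proteins, and the genes are known for being transcribed at high and matched rates in growing cells. Their mRNAs begin with a cytosine and a run of pyrimidines, the terminal oligopyrimidine (TOP) motif, through which mTORC1 and LARP1 control their translation. MYC raises transcription of many of them, and proteins left without a partner, RPL5 and RPL11 above all, bind MDM2 and stabilise p53. Blood formation is sensitive to their dose: loss of one copy of RPS19 causes Diamond-Blackfan anaemia, and loss of one copy of RPS14 causes the anaemia of the 5q- syndrome. Almost every member has processed pseudogenes in the mouse genome, near-copies of its mRNA, so reads from a member often align to several places and are lost from its count.

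The annotated start sites show the pyrimidine run that unites the family and the members that lack it. RefSeq promoters (GRCm38.p6) were at hand for 57 of the 77 members. A run of at least 6 C or T beginning with C, searched from 5 bases before the start to 10 after it, was present in 23 of the 57 (40.4%), against 9.38% of 27025 genes in the same table. The windows below hold 10 bases before the start and 20 from it, 5′ to 3′ on the gene's strand. Capitals mark the run from its first C within the stretch searched to its end, and in Rpl35 the C bases just before the capitals lengthen it upstream of that stretch. The first 5 are members with a run that are described later; the last 5 have none in the stretch searched and include the paralogs Rps27l and Rpl3l.
Rpl28 (chr7:4792955-4792984, + strand): tctcgtgtCTCTCTTTCCgtctccggccgc
Rpl12 (chr2:32961702-32961731, + strand): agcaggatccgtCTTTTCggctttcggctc
Rps6 (chr4:86857348-86857377, - strand): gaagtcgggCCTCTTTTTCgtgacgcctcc
Rpl35 (chr2:39005112-39005141, - strand): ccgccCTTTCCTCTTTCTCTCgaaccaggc
Rpl38 (chr11:114668570-114668599, + strand): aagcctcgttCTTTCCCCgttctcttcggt
Rpl10a (chr17:28328461-28328490, + strand): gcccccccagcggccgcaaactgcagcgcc
Rpl6 (chr5:121204491-121204520, + strand): acctcccgtcattgcttatagaccggaagc
Rpl27 (chr11:101442235-101442264, + strand): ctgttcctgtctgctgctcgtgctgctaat
Rps27l (chr9:66946076-66946105, + strand): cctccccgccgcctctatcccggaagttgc
Rpl3l (chr17:24727816-24727845, + strand): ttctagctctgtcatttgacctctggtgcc

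An annotated start can lie some bases from the true one, so the absence of a run says only that these letters are not in the stretch searched. The windows of Rpl10a, Rpl6 and Rps27l do hold 6 or more pyrimidines beginning with C, farther upstream. Over the longer promoter (250 bases before the start to 50 after it), the core of the ETS motif, CCGGAAG or CTTCCGG on the other strand, was present in 22 of 57 members (38.6%) against 9.12% of all genes; in Rpl6 and Rps27l it falls inside the window printed. TATAAA in the 40 bases before the start was present in 0 of 57 members and in 2.55% of all genes. These matches are descriptions of sequence.

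Libraries held from 14044284 to 22423837 gene counts. Chaf1b was at 96.8 and 100.3 CPM (counts scaled to library size) in uninduced cells, at 18.7 and 9.72 CPM under CAF-1 OFF and at 48.3 and 41.0 CPM under HOXA9 OFF. Estradiol withdrawal acts on the fusion protein, so no transcript checks the HOXA9 OFF label in this way. CPM here is scaled by TMM factors, which were from 1.008 to 1.059 outside HOXA9 OFF cells and 0.894 and 0.905 in them. The 8 neutrophil markers summed to 218 and 167 CPM when uninduced, 1545 and 2621 CPM under CAF-1 OFF and 9402 and 6391 CPM under HOXA9 OFF. The 5 macrophage markers, of which Marco was at 0, summed to between 26.9 and 77.01 CPM outside HOXA9 OFF and to 1008 and 1527 CPM in it, and the 4 megakaryocyte markers to between 23.6 and 29.3 CPM in controls, 189.5 and 217 CPM under CAF-1 OFF and 128 and 138 CPM under HOXA9 OFF. The 7 progenitor markers summed to between 10670 and 15820 CPM outside HOXA9 OFF cells and to 7561 and 5566 CPM in them. The 5 erythroid markers summed to between 4.66 and 7.61 CPM in controls, 15.3 and 14.7 CPM under CAF-1 OFF and 22.8 and 12.75 CPM under HOXA9 OFF. The 4 lymphoid markers, of which Cd3e and Cd3g were at 0, summed to between 2.12 and 3.31 CPM in controls, 17.2 and 16.6 CPM under CAF-1 OFF and 3.74 and 8.23 CPM under HOXA9 OFF. The libraries of a group are separate samples by their labels, which do not say whether they are separate cultures, so p-values measure only the spread between these libraries.

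The family as a whole took a smaller share of the counts after either perturbation. The 77 genes held 2.82% and 2.39% of gene counts in the uninduced libraries and 2.60% and 2.66% in the IPTG-treated control. They held 2.15% and 2.08% under CAF-1 OFF and 1.81% and 1.66% under HOXA9 OFF. All 4 control libraries lay above both CAF-1 OFF libraries, and these above both HOXA9 OFF libraries, without overlap. The 2 uninduced libraries differed from each other by more than those of any other group. These orders depend on whether the most abundant members are counted. The 10 most abundant genes held 1 and 2 members in the uninduced libraries and 1 and 2 in the IPTG-treated control. They held 2 in each CAF-1 OFF library and 0 in the HOXA9 OFF libraries. Without these 10 genes the shares were 1.71% and 1.65% under CAF-1 OFF and 1.92% and 1.76% under HOXA9 OFF. Uninduced replicate 2, at 1.88%, then lay below HOXA9 OFF replicate 1. Leaving out only non-members among the most abundant genes kept the first order.

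**Figure D1:**
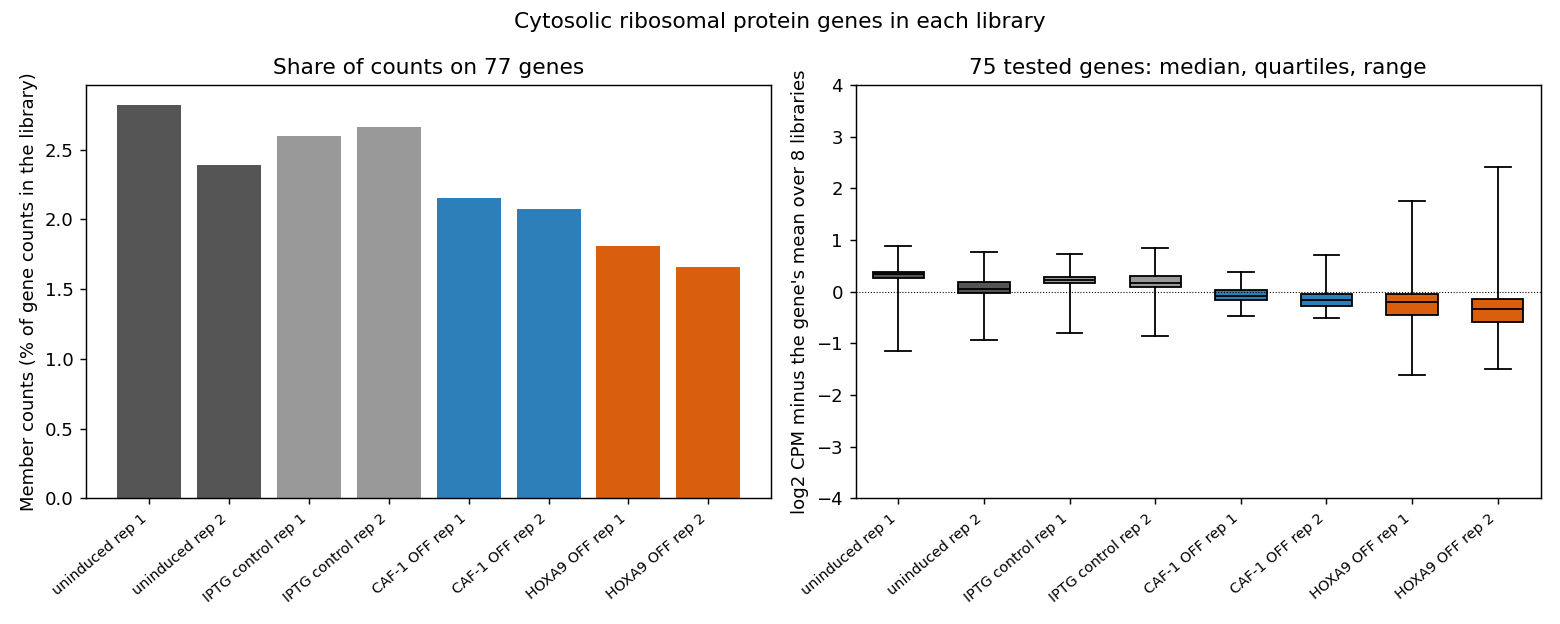
Left, percent of a library's gene counts on the 77 ribosomal protein genes, 1 bar per library. Right, log2 CPM of each of the 75 tested genes minus that gene's mean over the 8 libraries, with the box at the quartiles, the line at the median and the whiskers at the extremes. The median is highest in uninduced replicate 1 (0.34) and lowest in HOXA9 OFF replicate 2 (-0.33).

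Both subunits moved alike in this respect. The small-subunit genes held 1.39% and 1.15% of counts in uninduced cells and 0.879% and 0.803% under HOXA9 OFF, and the large-subunit genes went from 1.44% and 1.24% to 0.931% and 0.854%. The median over the 75 tested members of log2 CPM, each relative to its own mean, was 0.34 and 0.05 in uninduced cells, 0.22 and 0.17 in the IPTG-treated control, -0.07 and -0.17 under CAF-1 OFF and -0.20 and -0.33 under HOXA9 OFF. In bulk libraries, fewer cells of one type and less RNA per cell cannot be told apart, and a share of counts says nothing of the ribosomal protein mRNA in one cell.

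Counts were very unequal between members. Of the 77 members 14 averaged fewer than 100 counts per library. Members of near-equal stoichiometry in the ribosome thus differ widely in counts: Rps3 was at 3564 and 2855 CPM when uninduced, and Rps27 at 1.69 and 0.770 CPM. Of the 50-base windows in the members' transcripts, the share found nowhere else in the genome (mm9) had a median of 49.8% over the 76 members annotated, and was only 0.338% for Rps27 and 5.31% for Rps6. Across 74 tested members this share and the log2 mean CPM had a Pearson correlation of 0.53, given as a description over genes that share the same libraries. For that reason differences between conditions are described below, and levels are not compared between genes.

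The number of reads with several alignments per read assigned to a gene also moved with the conditions. The uninduced libraries had ratios of 1.07 and 0.960. The ratios were 1.28 and 1.03 in the IPTG-treated control, 0.901 and 0.869 under CAF-1 OFF and 0.801 and 0.804 under HOXA9 OFF. A sum was also taken over the 161 ribosomal protein pseudogenes whose symbols carry the suffix -ps, and pseudogenes with other names are not in it. It was 135 and 100.0 CPM when uninduced, 94.2 and 84.7 CPM under CAF-1 OFF and 91.5 and 86.6 CPM under HOXA9 OFF. The part of these values in the results below was not tested.

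On CAF-1 depletion most members had slightly lower values, and few single genes passed the test. The median log2 fold change of the 75 members against uninduced cells was -0.35, beside 0.01 for all tested genes, and 71 of 75 values were negative. Without uninduced replicate 1 the median was -0.21, with 61 of 75 values negative. Both CAF-1 OFF libraries lay below both uninduced libraries for 54 of 75 members, where 33.0% of all tested genes did so. A gene was called, in the edgeR quasi-likelihood test, at 1.5-fold or more with a Benjamini-Hochberg adjusted p (FDR) below 0.05. By it 2 members were lower and 0 higher, beside 3.50% of all genes called lower and 10.5% called higher. Without the fold threshold 10 members were lower, beside 8.66% of all genes. The same libraries had 6 of 8 neutrophil and 3 of 4 megakaryocyte markers called higher, and 1 each of the 4 macrophage, 3 erythroid and 2 lymphoid markers tested. The part of this in the members' values was not tested.

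The 2 genes called were Rpl10a and Rpl35, both of the large subunit. Rpl10a, whose protein is known from ribosomes that favour particular mRNAs, was at 61.4 and 51.0 CPM when uninduced and at 37.7 and 34.4 CPM under CAF-1 OFF. Its log2 fold change was -0.64 ± 0.14 (SE), with an adjusted p of 0.0191 by edgeR. Rpl35, which sits at the exit of the peptide tunnel, was at 152 and 102 CPM and fell to 76.3 and 84.7 CPM, a log2 fold change of -0.66 ± 0.18 (adjusted p = 0.0382). Rpl10a lies at chr17:28465416-28467977 and Rpl35 at chr2:38857100-38861144 in mm9, and Rpl35 overlaps Wdr38 on the opposite strand. In both genes all CAF-1 OFF values lay below all control values. Both calls were lost without uninduced replicate 1 (log2 fold changes -0.50 and -0.34) and without either CAF-1 OFF library. The count was 0 without uninduced replicate 1 or CAF-1 OFF replicate 2, 7 without uninduced replicate 2, 5 without either HOXA9 OFF library and 1 without either IPTG-treated control library. By FDR alone it was from 0 to 19 when 1 library was left out.

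Against the IPTG-treated control, which had IPTG for the same 48 h, the values were close to these. The 2 comparisons share the CAF-1 OFF libraries. The median log2 fold change was -0.34, with 71 of 75 values negative, and 63 of 75 members did not overlap and were lower, beside 33.5% of all genes. Again 2 members were called lower (3.20% of all genes), Rpl3 and Rpl35, and 10 were lower by FDR alone (7.55% of all genes). Rpl3, the protein nearest to the peptidyl transferase centre, was at 299 and 304 CPM in the IPTG-treated control and at 195 and 204 CPM under CAF-1 OFF (log2 fold change -0.60 ± 0.11, adjusted p = 0.0149). Leaving out either library of the control or of CAF-1 OFF cells gave 0 calls, by FDR alone as well.

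Between the IPTG-treated control and uninduced cells no member passed the test. The median log2 fold change of the members was 0.00. By edgeR 0 of 75 members were called higher or lower and 0 had an unadjusted p under 0.05, beside 0% of all 13080 genes called in either direction and 100 genes at an unadjusted p under 0.05, and DESeq2 and the edgeR exact test called 0 members as well. Evenly spread p-values would put more genes than these 100 under 0.05, so the edgeR test was conservative in this comparison. The absence of calls therefore says little by itself. Both control libraries lay below both uninduced libraries for 4 members, where 9.46% of all genes did.

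Besides Rpl10a and Rpl35, the 5 lowest fold changes under CAF-1 OFF were those of 3 thinly counted genes, Rpl36, Rpl19 and Rpl28. Rpl36 was at 6.85 and 6.12 CPM when uninduced and at 4.11 and 3.29 CPM under CAF-1 OFF, and its log2 fold change of -0.81 ± 0.30 did not pass (adjusted p = 0.098). Rpl19 (-0.69 ± 0.29) and Rpl28 (-0.64 ± 0.20) did not pass either, though Rpl28 was called without either HOXA9 OFF library (-0.65) or with the replicate block (-0.65). At the other end stood Rpl3l (0.93 ± 0.39), Rpl23a (0.42 ± 0.53), Rpl38 (0.18 ± 0.39), Rps13 (0.03 ± 0.34) and Rpl23 (-0.05 ± 0.13), none of which passed. Rpl38, whose protein is known for its part in the translation of Hox mRNAs, had from 0.545 to 1.36 CPM in all libraries.

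**Figure D2:**
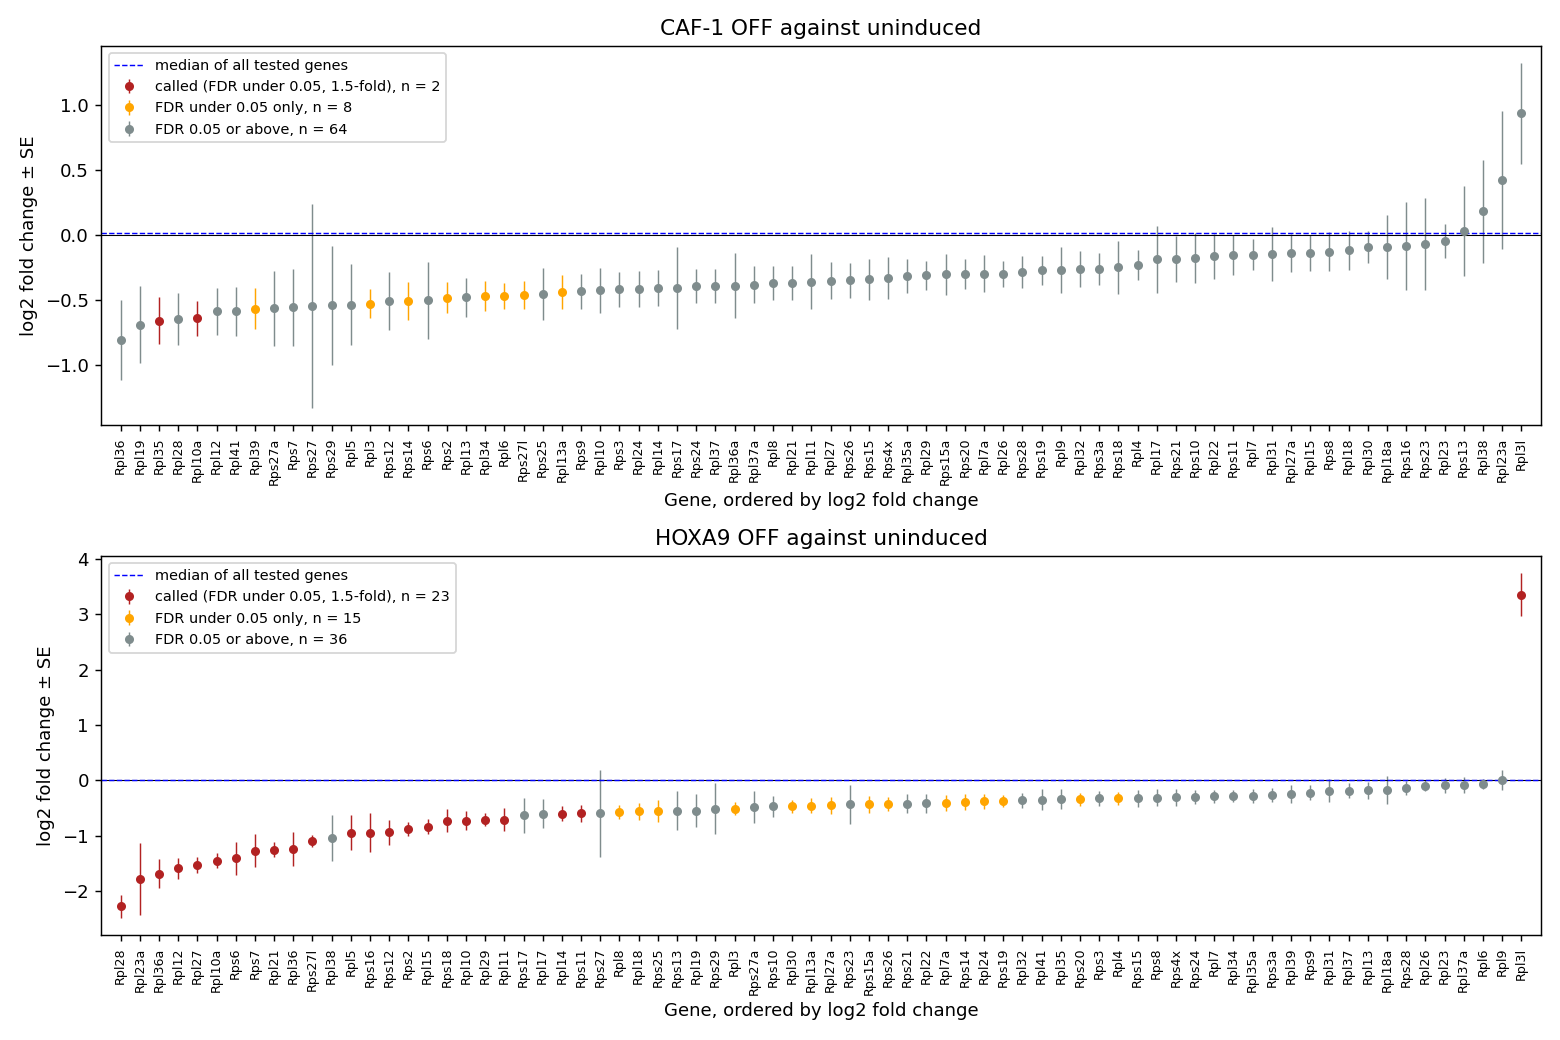
Log2 fold change with its standard error for 74 of the 75 tested genes, in order, for CAF-1 OFF (top) and HOXA9 OFF cells (bottom) against the same 2 uninduced libraries. Colours give the genes called (2 and 23), those past the FDR alone (8 and 15) and the others; in the top plot nearly all points lie between 0 and -0.81, and in the bottom plot they reach -2.27, with Rpl3l alone far above 0.

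On HOXA9 inactivation the changes were uneven, from 0.207 of the uninduced level for Rpl28 to a rise of 10.2-fold for Rpl3l. The median log2 fold change against uninduced cells was -0.45, beside 0.01 for all tested genes, and 73 of 75 values were negative. By the edgeR test 22 members were lower and 1 was higher, beside 22.1% of all genes called lower and 25.2% called higher. By FDR alone 38 members were lower, beside 28.0% of all genes, and 54 of 75 lay below uninduced cells without overlap, beside 38.9% of all genes. Of the lower calls 8 were in the small subunit (31 tested) and 14 in the large (44 tested). The same libraries had the 8 neutrophil, 4 measured macrophage and 3 of 4 megakaryocyte markers higher and 4 of 7 progenitor markers lower, and the part of this in the members' values was not tested.

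These counts rest in part on single libraries and on the scaling. The count of calls was from 16 to 29 when 1 library was left out. The median was -0.28 without uninduced replicate 1 and -0.59 without uninduced replicate 2. With library size in place of TMM the median of all genes became -0.18 and that of the members -0.64, with 39 called. Against the IPTG-treated control as the reference, 23 members were lower (21.8% of all genes) and 1 higher (24.6% of all genes), the median was -0.43, and 62 of 75 members were lower without overlap, beside 39.3% of all genes.

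The 5 members that fell most were all of the large subunit. Rpl28 was at 14.1 and 14.0 CPM when uninduced, 13.1 and 11.0 CPM in the IPTG-treated control, 9.95 and 8.05 CPM under CAF-1 OFF and 2.98 and 2.83 CPM under HOXA9 OFF. None of the 4 groups overlapped, and its log2 fold change on HOXA9 inactivation was -2.27 ± 0.21 (adjusted p = 8.25e-05), or 0.207 of the uninduced level. Rpl36a was at 7.08 and 7.02 CPM against 2.50 and 1.88 CPM, a log2 fold change of -1.68 ± 0.26 (adjusted p = 0.00103). Of the windows of Rpl36a, only 7.37% are found nowhere else in the genome. Rpl12, a protein at the base of the stalk where elongation factors bind, was at 43.6 and 31.4 CPM against 13.5 and 11.5 CPM (-1.59 ± 0.19, adjusted p = 0.000249). Rpl12 also overlaps Lrsam1 on the opposite strand, and it is not stated whether the counting used strand.

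Rpl27 fell from 44.1 and 38.9 CPM to 15.0 and 13.7 CPM (-1.53 ± 0.15, adjusted p = 0.000102). The remaining one was Rpl23a, second in size of fitted change, with 9 and 8 counts in uninduced cells and 2 and 2 counts in HOXA9 OFF cells. These last are under the floor of 3 counts, so the gene was at least 2.28-fold lower than in uninduced cells, and its call (adjusted p = 0.0481) was lost under 14 of the alternatives, including every one that left out a library. Only 5.48% of its windows are found nowhere else in the genome.

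At the other end, 4 members had changes within their error. Rpl9 was at 21.9 and 16.8 CPM when uninduced and at 20.2 and 18.6 CPM under HOXA9 OFF (log2 fold change 0.00 ± 0.17). For Rpl6 (-0.07 ± 0.10), Rpl37a (-0.09 ± 0.14) and Rpl23 (-0.09 ± 0.13) the same held.

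How far a member fell on HOXA9 inactivation went with how thinly it was counted. In the 25 members with the lowest mean CPM over the 8 libraries (0.391 to 24.8 CPM) the median log2 fold change was -0.71, with 12 called lower and 1 higher. In the middle 25 (27.3 to 231.8 CPM) it was -0.41 with 7 called, and in the highest 25 (235 to 2875 CPM) -0.36 with 3 called. All tested genes in the same 3 CPM ranges had medians of 0.08, -0.03 and -0.21, so their order was the opposite, and 18.1%, 25.3% and 28.9% of them were called lower. The Spearman correlation of mean CPM and log2 fold change over the 75 members was 0.46 (Pearson 0.23), and that of the share of windows found nowhere else and log2 fold change was 0.34 over 74 members. In CAF-1 OFF cells the 3 medians were -0.41, -0.30 and -0.35, beside 0.19, -0.06 and -0.16 for all tested genes in these ranges. Whether shared reads have a part in this pattern was not tested.

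**Figure D3:**
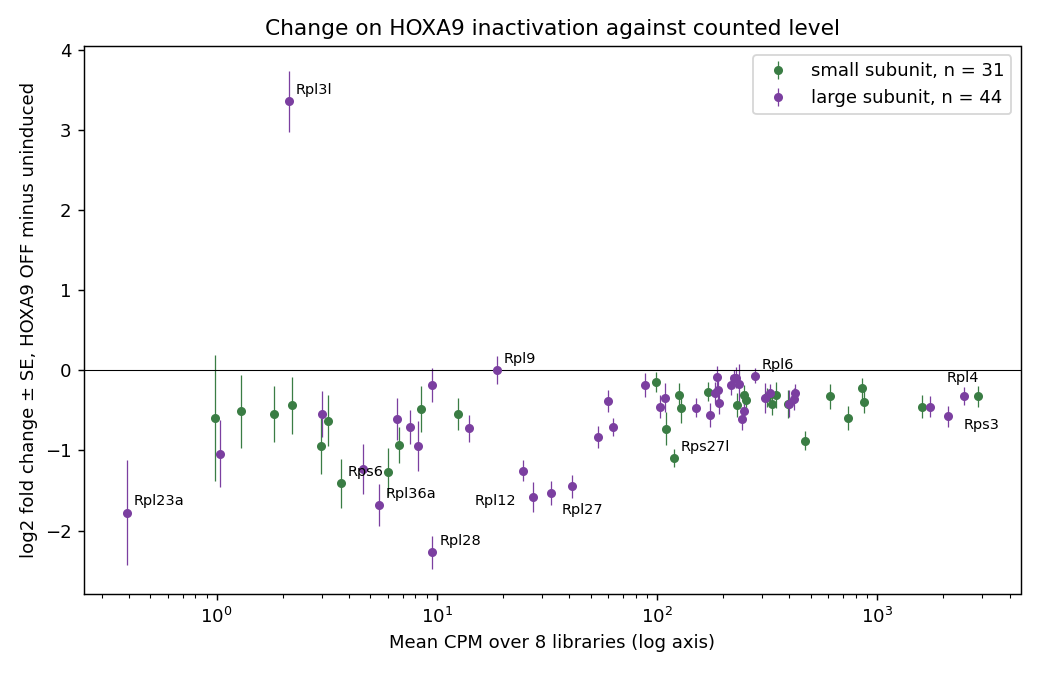
Log2 fold change with its standard error in HOXA9 OFF against uninduced cells, by mean CPM over the 8 libraries (log axis), for 31 small-subunit and 44 large-subunit genes. The genes below -1 sit in the left and middle of the plot, while Rps3 (-0.33), Rpl4 (-0.32) and Rpl8 (-0.57) lie at its right edge.

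The members were also split by features of sequence and structure. The 23 members with a pyrimidine run at the start had a median log2 fold change of -0.46 on HOXA9 inactivation, with 7 called lower, and the 32 tested members without one -0.36, with 10 called lower and 1 higher, beside 22.1% and 25.2% of all genes. On CAF-1 depletion the medians were -0.35 and -0.39. With and without the ETS core, the medians were -0.47 and -0.41 under HOXA9 OFF and -0.39 and -0.37 under CAF-1 OFF. The 28 members with a small nucleolar RNA annotated inside the gene had medians of -0.45 and -0.30, and the 46 others -0.46 and -0.36. For the difference between CAF-1 OFF and HOXA9 OFF cells the medians were 0.23 with a pyrimidine run and 0.01 without, and 0.23 with the ETS core and 0.10 without. These are descriptions, and no split was tested.

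Of the paralogs Rpl3l, Rpl10l, Rpl39l, Rps4l and Rps27l, 2 could be measured. Rpl3l, the striated-muscle paralog of Rpl3, had 12 and 15 counts in uninduced cells, 10 and 11 in the IPTG-treated control, 23 and 20 under CAF-1 OFF and 86 and 151 under HOXA9 OFF. The HOXA9 OFF libraries (4.67 and 7.49 CPM) stood apart from all others, which were at most 1.21 CPM, and from each other. Its log2 fold change was 3.36 ± 0.38, or 10.2-fold (adjusted p = 0.000213), the only increase called among the members. All 1323 windows of its transcript are found nowhere else, and no annotated gene overlaps it at chr17:24864774-24873094 in mm9. Rpl3 fell in the same libraries, from 316 and 260 CPM to 199 and 206 CPM (-0.51 ± 0.11, adjusted p = 0.00579), short of 1.5-fold, which it passed without uninduced replicate 2 (-0.65) and by library size only (-0.70).

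Rps27l, a paralog of Rps27 known as a p53 target, moved the other way. It was at 159 and 149 CPM when uninduced, 138 and 141 CPM in the IPTG-treated control, 120 and 103 CPM under CAF-1 OFF and 68.2 and 75.9 CPM under HOXA9 OFF. None of these 4 groups overlapped, and Rps27l fell by 1.09 on the log2 scale in HOXA9 OFF cells (SE 0.11, adjusted p = 0.000123) and by 0.46 under CAF-1 OFF (SE 0.11, adjusted p = 0.0254), which became 0.60, past 1.5-fold, without CAF-1 OFF replicate 1. Rps27 itself had from 4 to 38 counts per library and could not be judged (-0.60 ± 0.78 under HOXA9 OFF). Of the parent genes of the undetected paralogs, on HOXA9 inactivation Rpl10 fell by 0.73 (SE 0.17, adjusted p = 0.00773), and Rpl39 was at -0.25 ± 0.16 and Rps4x at -0.31 ± 0.16.

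**Figure D4:**
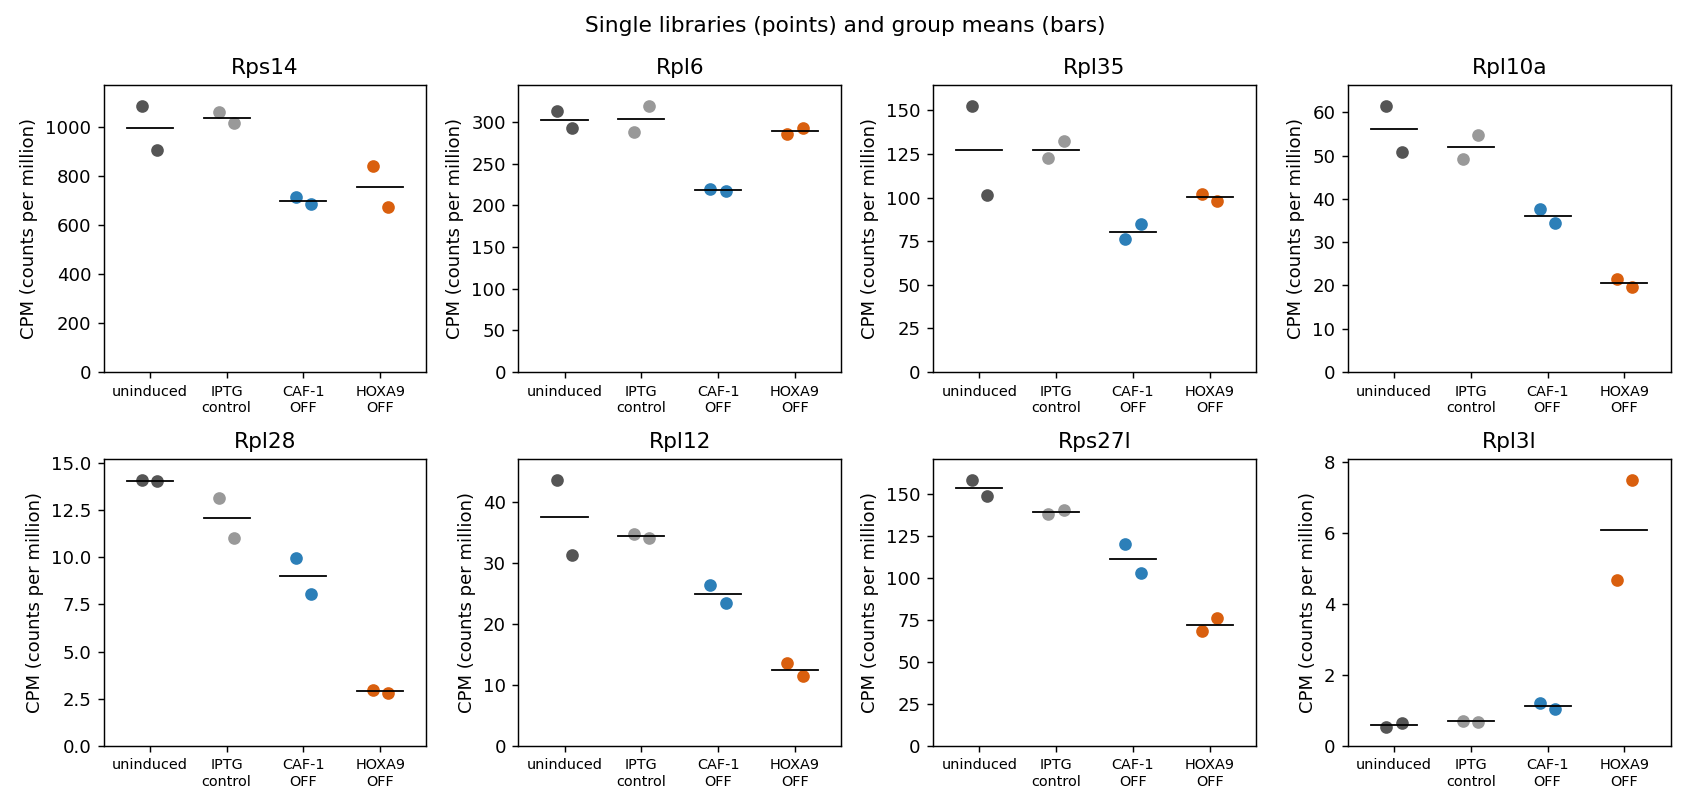
CPM of 8 ribosomal protein genes in each library (points) with group means (bars), each axis starting at 0. Rpl28, Rpl12, Rpl10a and Rps27l step down from uninduced through CAF-1 OFF to HOXA9 OFF cells, Rpl6 and Rpl35 are lowest in CAF-1 OFF cells, and Rpl3l rises in HOXA9 OFF cells.

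Among the members known from blood disease or signalling, Rps14 and Rps19 changed by less than 1.5-fold. Rpl5, Rpl11 and Rps6 were called lower on HOXA9 inactivation, and under CAF-1 OFF they lay below all controls without being called. Rps14 was at 1087 and 906 CPM in uninduced, 1065 and 1016 CPM in IPTG-treated control, 716 and 686 CPM in CAF-1 OFF and 843 and 673 CPM under HOXA9 OFF. Both perturbed groups lay below all controls, with log2 fold changes of -0.51 ± 0.14 under CAF-1 OFF (adjusted p = 0.0435) and -0.39 ± 0.14 under HOXA9 OFF (adjusted p = 0.0455), each under 1.5-fold. Rps19 was at 308 and 257 CPM in uninduced, 231 and 237 CPM in CAF-1 OFF and 229 and 207.5 CPM under HOXA9 OFF (-0.27 ± 0.11 and -0.37 ± 0.11, adjusted p = 0.126 and 0.0231).

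Under CAF-1 OFF, Rpl5 was at 7.69 and 5.91 CPM, Rpl11 at 6.79 and 7.42 CPM and Rps6 at 3.53 and 2.98 CPM. These values lay below all control libraries. Rpl5 was at 10.2 and 9.54 CPM when uninduced and at 6.67 and 3.57 CPM under HOXA9 OFF, and fell by 0.95 on the log2 scale (SE 0.31, adjusted p = 0.0328). Rpl11 went from 8.37 and 9.88 CPM to 5.97 and 5.21 CPM and fell by 0.71 (SE 0.21, adjusted p = 0.022). Both are thinly counted, and leaving out HOXA9 OFF replicate 2 or uninduced replicate 2 ended both calls. Without the former the log2 fold changes were -0.56 for Rpl5 and -0.61 for Rpl11, and leaving out uninduced replicate 1 ended the call of Rpl5 as well (-0.90). Rps6, the substrate of the S6 kinases, was at 4.14 and 5.09 CPM against 1.63 and 1.83 CPM and fell by 1.41 (SE 0.31, adjusted p = 0.00525). Rpl22, which binds RNA outside the ribosome and is needed in T cell development, was at 475 and 385 CPM against 369 and 276 CPM and did not pass (-0.42 ± 0.17, adjusted p = 0.0714). It was called without HOXA9 OFF replicate 1 (-0.64) and by library size only (-0.61).

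Set directly against each other, CAF-1 OFF and HOXA9 OFF cells differed in few members. The fold changes of this contrast come from the libraries of these groups, while scaling and spread were estimated over all 8 libraries. The median log2 difference (CAF-1 OFF minus HOXA9 OFF) was 0.11, beside 0.04 for all genes. It was 0.19 without CAF-1 OFF replicate 2, 0.20 without HOXA9 OFF replicate 1 and 0.03 without HOXA9 OFF replicate 2, where all genes had 0.06. By the edgeR test 11 members were higher in CAF-1 OFF cells (22.2% of all genes) and 1, Rpl3l, was lower (21.4% of all genes). Both CAF-1 OFF libraries lay above both HOXA9 OFF libraries for 33 of 75 members, where 40.8% of all genes did so. Scaling matters here: by library size alone 21 members were called, the members' median was 0.34 and that of all genes 0.27.

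The 5 highest differences were those of Rpl23a, Rpl28, Rpl36a, Rpl38 and Rpl27. Rpl28 was 3.09-fold higher in CAF-1 OFF than in HOXA9 OFF cells (log2 difference 1.63 ± 0.21, adjusted p = 0.000521). Rpl36a (1.29 ± 0.26), Rpl38 (1.22 ± 0.42) and Rpl27 (1.18 ± 0.15) followed. Rpl23a was at least 3.06-fold higher, counting its HOXA9 OFF libraries at 3 counts. Rps27l (0.63 ± 0.11) and Rps6 (0.91 ± 0.31) were also called. The call of Rpl38 (adjusted p = 0.0404 by edgeR) was lost without any 1 of the 8 libraries, and that of Rps6 (adjusted p = 0.0378) without any 1 of the 6 libraries outside the IPTG-treated control. That of Rpl23a was lost under 8 alternatives, and that of Rps27l without CAF-1 OFF replicate 1 (0.51) or HOXA9 OFF replicate 1 (0.55).

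Rpl6, a large-subunit protein, had its lowest values under CAF-1 OFF. It was at 313 and 293 CPM when uninduced, 288 and 319 CPM in the IPTG-treated control, 220 and 218 CPM under CAF-1 OFF and 285 and 293 CPM under HOXA9 OFF. Its CAF-1 OFF libraries lay below the other 6, and it was lower in CAF-1 OFF than in HOXA9 OFF cells by 0.40 on the log2 scale (SE 0.10, adjusted p = 0.0093), which is under 1.5-fold. Rpl39 (-0.32 ± 0.16), Rpl35 (-0.32 ± 0.18) and Rpl37a (-0.30 ± 0.14) had the same sign and did not pass.

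The 10 constituents of the ribosome with other names had median log2 fold changes of -0.42 under CAF-1 OFF and -0.43 under HOXA9 OFF, with 0 and 1 called lower, beside 3.50% and 22.1% of all genes. Of 15 other mRNAs with a TOP motif, 1 was called lower in CAF-1 OFF cells and 5 under HOXA9 OFF, beside 3.50% and 22.1% of all genes, with medians of -0.31 and -0.39. Eif3f, a translation initiation factor subunit named after its values were seen, was at 609 and 503 CPM when uninduced and at 768 and 796 CPM under CAF-1 OFF, higher by FDR alone. Npm1, nucleophosmin, was lower in both: it was at 1140 and 1058 CPM in uninduced, 647 and 544 CPM in CAF-1 OFF and 347 and 307 CPM under HOXA9 OFF. The elongation factor subunits Eef1g (-1.40 ± 0.12) and Eef1d (-1.23 ± 0.09) and the splicing factor Hnrnpa1 (-0.92 ± 0.22) were lower in HOXA9 OFF cells.

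The 75 mitochondrial ribosomal protein genes encode the proteins of a separate ribosome, that of the mitochondrion. In CAF-1 OFF cells their median of -0.34 (74 tested) was next to the -0.35 of the cytosolic members, with 9 called lower and 0 higher. In HOXA9 OFF cells the median was -0.82, with 52 of 74 called lower and 0 higher, where the cytosolic members had -0.45 and 22 of 75. Of all genes 3.50% were called lower in the first comparison and 22.1% in the second. The difference between the lists was not tested. Mrpl12 was at 170.1 and 148 CPM in uninduced, 96.4 and 95.5 CPM in CAF-1 OFF and 35.6 and 37.6 CPM under HOXA9 OFF, with log2 fold changes of -0.73 ± 0.11 and -2.12 ± 0.11. Mrps6 was at -1.87 ± 0.16 under HOXA9 OFF.

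**Figure D5:**
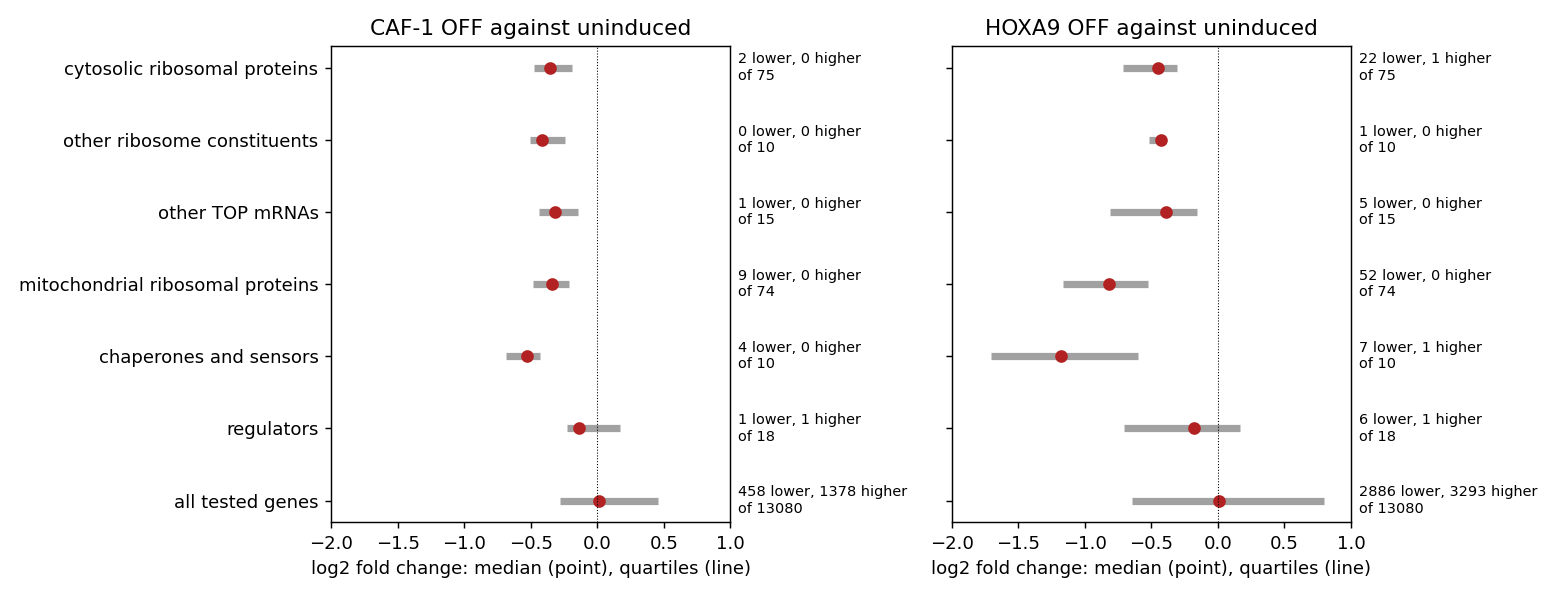
Median (point) and quartiles (line) of the log2 fold change over the tested genes of each list, with the number called lower and higher at the right, under both perturbations against the same uninduced libraries. The 2 kinds of ribosomal protein gene have like medians in CAF-1 OFF cells (-0.35 and -0.34) and unlike ones in HOXA9 OFF cells (-0.45 and -0.82).

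The dedicated chaperones that escort single ribosomal proteins, and the sensors of free ones, had median log2 fold changes of -0.53 under CAF-1 OFF and -1.18 under HOXA9 OFF. Of 10 tested, 4 were called lower in CAF-1 OFF cells, and 7 lower and 1 higher in HOXA9 OFF cells, beside 3.50% of all genes lower in the first, and 22.1% lower and 25.2% higher in the second. Grwd1, the chaperone of RPL3, was at 108 and 97.2 CPM in uninduced, 60.5 and 64.4 CPM in CAF-1 OFF and 17.7 and 19.3 CPM under HOXA9 OFF (-0.71 ± 0.11 and -2.46 ± 0.12). Tsr2, the chaperone of RPS26, was lower in both (-0.80 ± 0.14 and -1.79 ± 0.14). Rpf2 (-1.45 ± 0.10), which helps bring RPL5 and RPL11 into the large subunit, was lower in HOXA9 OFF cells. Mdm2, the p53 ligase that free RPL5 and RPL11 bind, was higher in HOXA9 OFF cells (0.67 ± 0.14, adjusted p = 0.0042).

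Among 18 regulators of ribosomal protein synthesis, 1 was called lower and 1 higher in CAF-1 OFF cells, and 6 lower and 1 higher in HOXA9 OFF cells, beside the 3.50% of all genes called lower and 10.5% higher in the first and the 22.1% lower and 25.2% higher in the second. Myc was at 574 and 527 CPM in uninduced, 455 and 391.8 CPM in CAF-1 OFF and 130 and 115 CPM under HOXA9 OFF. It fell by 2.17 on the log2 scale in HOXA9 OFF cells (SE 0.13, adjusted p = 1.67e-05) and its change in CAF-1 OFF cells did not pass (-0.38 ± 0.12, adjusted p = 0.0624). Mycn had 0 counts in both HOXA9 OFF libraries and was at least 6.45-fold lower there than in uninduced cells, where it averaged 1.05 CPM. Larp1 (-0.88 ± 0.12) and Eif4ebp1 (-0.84 ± 0.10), which hold back TOP and cap-dependent translation, were lower in HOXA9 OFF cells. Eif4ebp1 was also the regulator called lower under CAF-1 OFF (-0.73 ± 0.10). Deptor, an inhibitor inside mTOR complexes, was higher in CAF-1 OFF cells (2.24 ± 0.28) and in HOXA9 OFF cells (0.88 ± 0.27). The neutrophil markers differed between the same groups, and their part in these results was not tested.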

How the data were processed

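RNA from iGMPs was sequenced in 8 libraries. The authors aligned reads with STAR to mm9 and counted them per gene with HTSeq; the deposited values are raw counts per gene symbol, 1 file per library, not normalized and not pooled. Annotation version and strand setting are not given in the sources used here. Reads with several alignments stayed unassigned, so members with near-copies are undercounted and their levels can be distorted.

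Groups and replicate numbers came from the labels. Genes were filtered with filterByExpr, scaled by TMM and fitted with edgeR 4.0.16 in R 4.3.3 (all 8 libraries, 1 mean per group, glmQLFTest, Benjamini-Hochberg over 13080 genes). A call needed an adjusted p under 0.05 and 1.5-fold. The biological coefficient of variation was 18.9%. SEs were derived from F statistics. The floor was 3 counts per library, from 0.128 to 0.212 CPM; it covers counting error only. The code was tested on simulated data. Alternatives were other scalings, filters, tests (DESeq2 1.42.0, edgeR exact test, glmTreat), thresholds and sample sets, the replicate block and leaving out each library.

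The members, companion lists and tests were chosen with earlier results of these data known. Named were the paralogs and their parents, the 5 highest and 5 lowest members of each main comparison, 6 members known from disease or signalling, all members called where 10 or fewer were, and up to 4 called genes per companion list and direction; the most counted members were named after their values were seen. Starts are from RefSeq (GRCm38.p6); shared 50-base windows were counted in the mm9 genome with GENCODE vM1 transcripts. Values of 2 genes are not reported here by name; they remain in the counts and medians.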

Additional observations from a re-analysis of the deposited data

How the results depend on the processing

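The limits are 2 libraries per group, reads lost to near-copies, and the pull of uninduced replicate 1, whose median over the members (0.34) stood above that of uninduced replicate 2 (0.05). Over the genes named, no call changed direction under any alternative.

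Members called in CAF-1 OFF against uninduced cells (2) became 5 with no filter on counts, 4 by DESeq2, 4 by the edgeR exact test, 0 by glmTreat, 0 at FDR 0.01 with 2-fold, 10 at FDR 0.05 alone, and from 0 to 7 without 1 library. Against the IPTG-treated control (2) they became 1 by library size only, 1 with a mean of at least 50 counts, 0 by glmTreat, 0 at the stricter threshold, 10 at FDR alone, and from 0 to 3 without 1 library. In HOXA9 OFF against uninduced cells (23) they became 39 by library size only, 13 by glmTreat, 10 at the stricter threshold, 39 at FDR alone, and from 16 to 29 without 1 library. In CAF-1 OFF against HOXA9 OFF cells (12) they became 21, 6 and 4 by library size only, glmTreat and the stricter threshold, 18 at FDR alone, and from 8 to 12 without 1 library. In the IPTG-treated control against uninduced cells the count was 0 throughout. Over all 13080 genes the counts called were 1836, 1670, 6179, 5695 and 0, in the order of the comparisons above. By FDR alone they were 2715, 2408, 7522, 7123 and 0. Counts over all genes under the other settings are not given here. The cause of the changes between settings was not tested.

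Counts on FDR alone, recomputed after seeing the data, were from 0 to 19 without 1 library in CAF-1 OFF against uninduced cells (10), and from 0 to 13 against the IPTG-treated control (10). In HOXA9 OFF cells (39) they were from 19 to 44, and 61 by library size only. With the replicate block they were 19, 17 and 47 in this order, and 22 in CAF-1 OFF against HOXA9 OFF cells (18). With only the groups compared they were 10, 23, 22 and 12, with the block added to that 6, 22, 38 and 9, and DESeq2 gave 19, 13, 40 and 15. By library size only the last was 33.

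The medians of the members changed without uninduced replicate 1 (-0.21 in CAF-1 OFF, -0.28 in HOXA9 OFF, 0.15 in the IPTG-treated control), without uninduced replicate 2 (-0.46 in CAF-1 OFF, -0.59 in HOXA9 OFF, -0.13 in the IPTG-treated control), and by library size only (-0.64 in HOXA9 OFF, 0.34 in CAF-1 OFF against HOXA9 OFF cells). That of CAF-1 OFF against HOXA9 OFF cells was 0.19 without CAF-1 OFF replicate 2, and 0.20 and 0.03 without HOXA9 OFF replicates 1 and 2.

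Shares of counts without each library's 10 most abundant genes, members among them removed, were 1.88% in uninduced replicate 2, 2.38% and 2.08% in the IPTG-treated control and 1.71% and 1.65% in CAF-1 OFF cells. Without the 10 most abundant genes that are no members, chosen after seeing the data, they were 2.71% and 2.75% in the IPTG-treated control and 2.23% and 2.16% in CAF-1 OFF cells, above the 1.92% and 1.76% of HOXA9 OFF cells.

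Neither the labels nor the study's methods say that a replicate number marks a shared clone or culture, and whether the numbers pair the libraries was not settled. With 2 per group, deviations of same-numbered libraries correlated over all tested genes at 0.48 between uninduced and IPTG-treated control cells, 0.30 and 0.32 between these and HOXA9 OFF cells, and from -0.04 to 0.08 with CAF-1 OFF cells. Over the 75 members alone the same correlations were -0.10, -0.07 and 0.42, and from -0.13 to 0.11 with CAF-1 OFF cells. Fitted with the replicate block, the counts called were 3, 2, 23 and 12 in the order above; with only the groups compared and the block, the first was 1.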
